A study of Mus musculus with 12 samples.

Results

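The response to 144 h of mTOR inhibition was compared between a wild-type mouse embryonic stem (ES) cell line and a line without Dnmt3a and Dnmt3b, the enzymes of de novo DNA methylation. The values are TPM, transcript levels scaled to sum to 1000000 per library, summed per gene from total RNA sequencing of sorted live cells. The wild-type line is labelled KH (the labels place E14 before the name of both lines, and the methods call the wild type KH2), and the knockout line is labelled DNMT3ABKO. Both were grown on mitomycin-treated feeder cells and treated with INK128. This compound inhibits the mTOR kinase, and ES cells held in it pause much as embryos do in diapause. Each genotype is 1 line, so genotype and line cannot be told apart, and 144 h cultures without INK128 were not analysed here, so treatment and time in culture cannot be told apart either. The comparison used 8 of the 12 libraries of the series, 2 replicates each of KH at 0 h, KH at 144 h, DNMT3ABKO at 0 h and DNMT3ABKO at 144 h. For each gene the response was the 144 h mean minus the 0 h mean of log2(TPM + 1), and the difference was the response in DNMT3ABKO minus the response in KH. The test took in the 15689 of 54446 genes whose mean over these libraries reached 1 TPM.

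Dnmt3a and Dnmt3b place new methyl groups on cytosines of CG dinucleotides, and Dnmt1 copies existing marks at replication. Genes held silent by this mark in ES cells include many germline genes with CG-rich promoters. A small share of cells in any ES culture passes through a two-cell-like state, in which Zscan4, Usp17l and other genes of the 2-cell embryo are expressed from multicopy clusters. The mTOR kinase drives protein, lipid and nucleotide synthesis, and its inhibition slows all of these in ES cells.

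TPM values summed to 1000000 in every library, so the files do not give the depth behind a value, which is unknown here, and a change in RNA per cell is not seen. Correlation between replicates across the tested genes was lowest in DNMT3ABKO at 0 h (0.985, against 0.993 to 0.995 elsewhere), and that group also had the widest residual SD (0.272 against 0.149 to 0.176). Dnmt3b, as a check of the labels, stood at 255 and 258 TPM in KH and 26.2 and 27.5 TPM in DNMT3ABKO at 0 h. Dnmt3a stood at 57.7 and 54.7 TPM in KH and 11.5 and 7.35 TPM in DNMT3ABKO. The difference in response did not pass the test for Dnmt3b (-0.18, adjusted p = 0.406) or Dnmt3a (0.10, adjusted p = 0.93). The 11 core pluripotency markers summed to 4640 to 4933 TPM at 0 h and 7030 to 7133 TPM at 144 h over both lines. The 29 fibroblast markers, which a culture on feeders can hold, summed to 4104 to 4543 TPM in KH and 4351 to 4891 TPM in DNMT3ABKO at 0 h, and to 751 to 842 TPM and 574 to 600.5 TPM at 144 h, with no marker listed at 0. The 16 macrophage markers summed to 329.8 to 356 TPM in KH and 288 to 312 TPM in DNMT3ABKO at 0 h, and to 23.0 to 23.3 TPM and 41.3 to 43.2 TPM at 144 h.

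The 144 h response differed between the lines in 807 of the 15689 genes (5.14%; limma, adjusted p under 0.05), of which 543 (3.46%) moved up relative to KH and 264 (1.68%) moved down. These are the genes called higher and called lower throughout. At an unadjusted p under 0.05 there were 2910, and 488 of the 807 differed by at least 1 on the log2 scale. The sign was the same in all 16 combinations of 1 library per group for every one of the 807. The median difference over all tested genes was 0.01. By itself, the 144 h response passed the test in 45.2% of genes in KH (23.5% rose and 21.8% fell) and in 51.9% in DNMT3ABKO (27.8% rose and 24.1% fell), and 5542 of the 5602 genes that passed in both lines moved in the same direction. Across genes, which are not replicates, the responses correlated with Pearson's r = 0.78. A total of 4044 genes passed in a single line, and the difference itself was called in 522 of these. Leaving out 1 library changed the count: it was 446 and 448 without a KH 144 h library, 453 and 458 without a KH 0 h library and 412 and 421 without a DNMT3ABKO 144 h library. It was 1163 without replicate 1 and 2394 without replicate 2 of DNMT3ABKO at 0 h. In every one of these 8 fits, 377 of the 807 genes (334 higher and 43 lower) were called in the same direction.

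The called genes were sorted by the response in each line. In 434 genes the response passed the test in DNMT3ABKO and not in KH (knockout only), with a median size of 1.99 in DNMT3ABKO and 0.12 in KH on the log2 scale. Another 187 genes moved the same way in both lines and further in DNMT3ABKO (larger), with medians of 1.78 and 0.71. In 42 genes the response in DNMT3ABKO was in the same direction and smaller (median 0.93 against 1.95), and in 88 it passed in KH alone (absent; median 0.17 against 0.83). The absent response was under 0.25 in size in 73 of these 88. Finally, 56 genes moved in opposite directions, with medians of 0.51 in KH and 0.56 in DNMT3ABKO. Knockout-only genes were mostly gains, 354 rising and 80 falling in DNMT3ABKO. The other patterns were more even, with 105 higher and 82 lower among the larger responses, 29 and 27 among the opposite, 24 and 18 among the smaller, and 31 and 57 among the absent. Each pattern kept a different share of its calls when single libraries were left out: 275 of 434 knockout-only, 58 of 187 larger, 25 of 56 opposite, 7 of 42 smaller and 12 of 88 absent genes were called in all 8 fits. Of the 543 genes called higher, 289 had a mean under 1 TPM in both KH groups, where the pseudocount of 1 TPM keeps a KH response small. They passed the filter through DNMT3ABKO, so a KH response that did not pass is not shown to be absent in them.

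**Figure D1:**
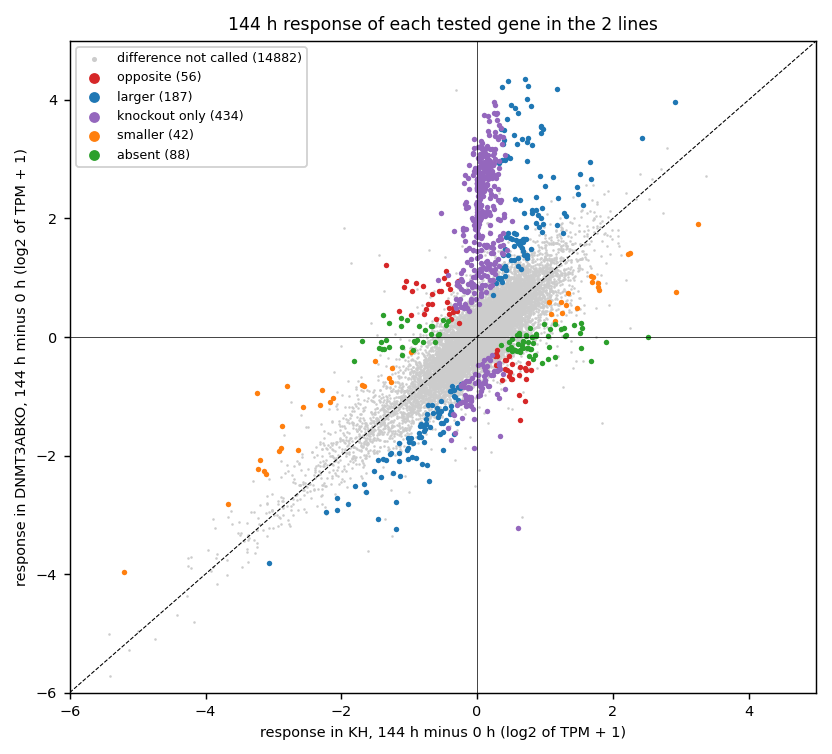
The 144 h response of each of the 15689 tested genes in KH (horizontal axis) and in DNMT3ABKO (vertical axis), both as log2 of TPM + 1, 144 h minus 0 h, means of 2 libraries per group. Colours mark the 5 patterns of the 807 called genes and grey the rest, and the dashed line marks equal responses. The 434 knockout-only genes form a column near 0 on the KH axis. Of the 543 genes called higher, 289 had a mean under 1 TPM in both KH groups, where the pseudocount keeps a KH response on this scale small.

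Most of the called genes stood further apart in the lines at 144 h than at 0 h. The lines differed at 144 h and not at 0 h in 519 of the 807, at both times in 196 (184 in the same direction), at 0 h alone in 75 and at neither time in 17. Over all genes, the lines differed in 5.14% at 0 h (3.23% higher and 1.91% lower in DNMT3ABKO) and in 18.8% at 144 h (8.67% higher and 10.2% lower). The gap was wider at 144 h than at 0 h in 704 called genes and narrower in 103, and its median size went from 0.35 to 1.15. Over all tested genes its median size was 0.15 at 0 h and 0.20 at 144 h. The 0 h and 144 h values chose the called genes, so a change in their gap follows from the choice. Their wider gap at 0 h also rests on values that chose them. The 72 h libraries took no part in the test. At 72 h the 543 genes called higher stood a median of 1.06 above KH, between 0.30 at 0 h and 2.25 at 144 h. The 264 genes called lower stood 0.23 below KH at 72 h, between 0.14 above at 0 h and 0.70 below at 144 h. A gap of at least 0.5 in favour of DNMT3ABKO at 72 h was held by 71.6% of the genes called higher and by 7.07% of all tested genes, and one of at least 0.5 in favour of KH by 22.3% of the genes called lower and 4.82% of all.

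**Figure D2:**
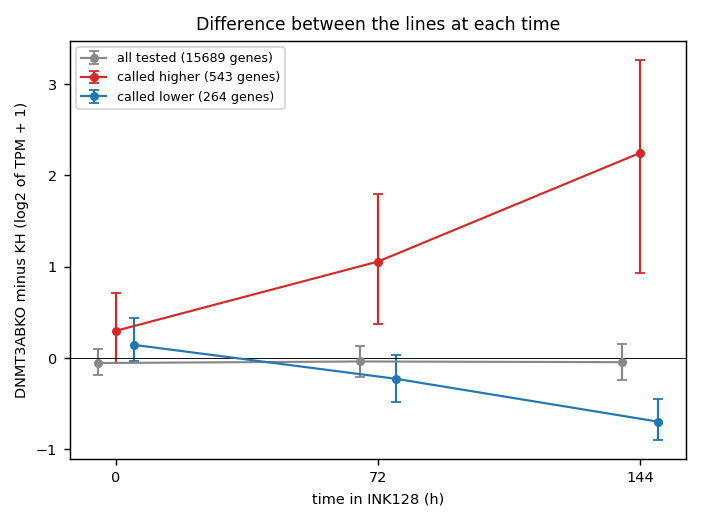
Median difference between the lines, DNMT3ABKO minus KH in log2 of TPM + 1, at 0, 72 and 144 h, for all tested genes, the 543 called higher and the 264 called lower. Bars span the lower to the upper quartile over genes. The medians of the genes called higher were 0.30, 1.06 and 2.25, and those of the genes called lower were 0.14, -0.23 and -0.70. The 0 h and 144 h values chose these genes.

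Genes of the two-cell-like state formed the list with the largest median of the 33 examined. Beside the list counts given here and below, 3.46% of all tested genes were called higher and 1.68% lower. All 25 tested members of a list of 28 were called higher, with a median difference of 2.61 and a range of 1.93 to 3.47. Of the 25, 12 rose in KH and 25 rose in DNMT3ABKO, with a median response of 0.38 in KH and 3.08 in DNMT3ABKO. A total of 18 of the 25 were under 1 TPM in both KH groups, so they passed the filter on low values through the DNMT3ABKO libraries, where they are high. Without that filter all 28 members entered the fit and all 28 were called higher (median 2.60). With a pseudocount of 0.1 TPM in place of 1 TPM, 23 of the 25 were called (median 2.301). Members of one family are near-identical copies between which reads can be split, so their single values are uncertain, and summed values are given as well. Zscan4, a family of zinc-finger genes of the 2-cell embryo that act on telomeres, summed over its 9 genes to 2.94 and 4.25 TPM at 0 h and 15.1 and 11.6 TPM at 144 h in KH, and 89.1 and 108 TPM and 1109.8 and 1161 TPM in DNMT3ABKO. Usp17l, a family of ubiquitin-specific proteases, summed over 6 genes to 0.449 and 0.371 TPM at 0 h and 1.29 and 1.84 TPM at 144 h in KH, and 10.9 and 11.2 TPM and 148 and 159 TPM in DNMT3ABKO. In both families the DNMT3ABKO libraries at 0 h already lay above the KH libraries at 144 h. Zscan4f (ENSMUSG00000070828.10, mm10 chr7:11397915-11402318) stood alone at 0.672 and 0.986 TPM at 0 h and 2.64 and 2.37 TPM at 144 h in KH, against 16.1 and 20.5 TPM and 222 and 232 TPM in DNMT3ABKO. Its difference was 2.62 (SE 0.20, adjusted p = 0.000124). Tmem92, which encodes a transmembrane protein, stood at 0.424 and 0.417 TPM in KH and 23.1 and 23.8 TPM in DNMT3ABKO at 144 h, a difference in response of 2.59 (SE 0.15, adjusted p = 6.86e-05). Smaller families moved as well. The summed Tdpoz genes, which hold a TRAF and a POZ domain, stood at 0.0167 and 0.01400 TPM at 0 h and 0.385 and 0.482 TPM at 144 h in KH, and 2.11 and 1.87 TPM and 32.3 and 30.01 TPM in DNMT3ABKO. For Tcstv1 and Tcstv3 together the values were 0.0799 and 0.0399 TPM at 0 h and 0.3798 and 0.3600 TPM at 144 h in KH, and 5.01 and 3.33 TPM and 40.3 and 41.7 TPM in DNMT3ABKO. In every KH library the Tdpoz and Tcstv sums were under 1 TPM, where the pseudocount of 1 TPM holds a response small. Whether they rose further in DNMT3ABKO than in KH, and by how much, therefore depends on this setting. With 0.1 TPM the call of Tcstv1 ended (difference 1.75, limma, adjusted p = 0.0532) and that of Tcstv3 held.

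The promoters of Zscan4f and Usp17lc are shown as starts of members of the Zscan4 and Usp17l families, with the CG dinucleotides on which Dnmt3a and Dnmt3b act marked. Each line gives 300 bases from 250 before to 50 after the RefSeq start (GRCm38.p6), 5′ to 3′, with each CG in capitals. Zscan4f (chr7:11397665-11397964, plus strand) holds 3 CG and Usp17lc (chr7:103416446-103416745, plus strand) holds 1, against a median of 7 over all 32851 promoters of the RefSeq table. The RefSeq start of Usp17lc lies 1624 bases from the start in the deposited files. A comparison over whole groups was void, because promoters matched for 77.3% of the tested protein-coding genes and for 14 of the 25 two-cell-like genes, under the 80% required.
Zscan4f: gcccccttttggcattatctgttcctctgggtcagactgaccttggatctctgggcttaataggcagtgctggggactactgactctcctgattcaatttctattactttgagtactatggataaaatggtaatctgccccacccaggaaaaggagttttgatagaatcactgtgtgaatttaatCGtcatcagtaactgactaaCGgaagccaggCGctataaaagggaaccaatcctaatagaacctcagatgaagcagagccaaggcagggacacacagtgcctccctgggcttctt
Usp17lc: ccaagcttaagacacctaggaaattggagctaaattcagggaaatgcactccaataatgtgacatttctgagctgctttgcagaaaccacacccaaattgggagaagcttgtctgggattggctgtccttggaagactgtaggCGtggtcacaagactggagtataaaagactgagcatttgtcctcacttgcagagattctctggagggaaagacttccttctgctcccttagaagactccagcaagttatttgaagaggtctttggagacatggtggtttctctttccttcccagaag

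Genes called higher lay together on the chromosomes. Of 2128 stretches of 1 megabase (Mb) that hold a tested gene, 18 held at least 5 genes called higher, and these 18 together held 141 of the 543, or 57.1% of the 247 genes tested there. No stretch held 5 genes called lower, and the most was 3. On chromosome 12 a pair of neighbouring stretches from 87 to 89 Mb (mm10) held 14 and 10 called genes, most of them predicted genes beside BB287469. The stretch at 11 Mb on chromosome 7 held Zscan4c, Zscan4d, Zscan4e and Zscan4f, pseudogenes of the family, and the predicted genes Gm18204 and Gm45551. All 9 tested genes of this stretch were called. Tdpoz1, Tdpoz3 and Tdpoz4 shared one on chromosome 3 with 5 predicted genes, and Pramef6 and Pramef25 shared one on chromosome 4 with 6 further called genes. Of 4 tested Pramef genes, these 2 were called. The summed Pramef genes stood at 34.1 and 40.6 TPM at 0 h and 20.6 and 20.6 TPM at 144 h in KH. In DNMT3ABKO they stood at 25.1 and 33.1 TPM and 52.7 and 49.7 TPM, so at 0 h they were not above KH. On the X chromosome a stretch at 73 Mb held 10, among them 8 Xlr genes of the 3, 4 and 5 groups, which are expressed in lymphoid and germ cells. The summed Xlr genes stood at 1.58 and 1.52 TPM at 0 h and 1.03 and 0.705 TPM at 144 h in KH, and 37.5 and 43.8 TPM and 91.8 and 96.2 TPM in DNMT3ABKO. Several stretches hold families of similar genes between which reads can be split, so neighbouring calls are not independent. The share of genes called higher ran from 1.08% on chromosome 16 to 6.83% on chromosome 12. By gene type it was 2.88% of 12549 protein-coding genes, 11.99% of 317 lincRNA genes, 5.35% of 1290 processed pseudogenes and 27.0% of 122 unprocessed pseudogenes. Of the 543 genes called higher, 289 had a mean under 1 TPM in both KH groups, against 2 of the 264 called lower, so the former passed the filter through DNMT3ABKO.

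**Figure D3:**
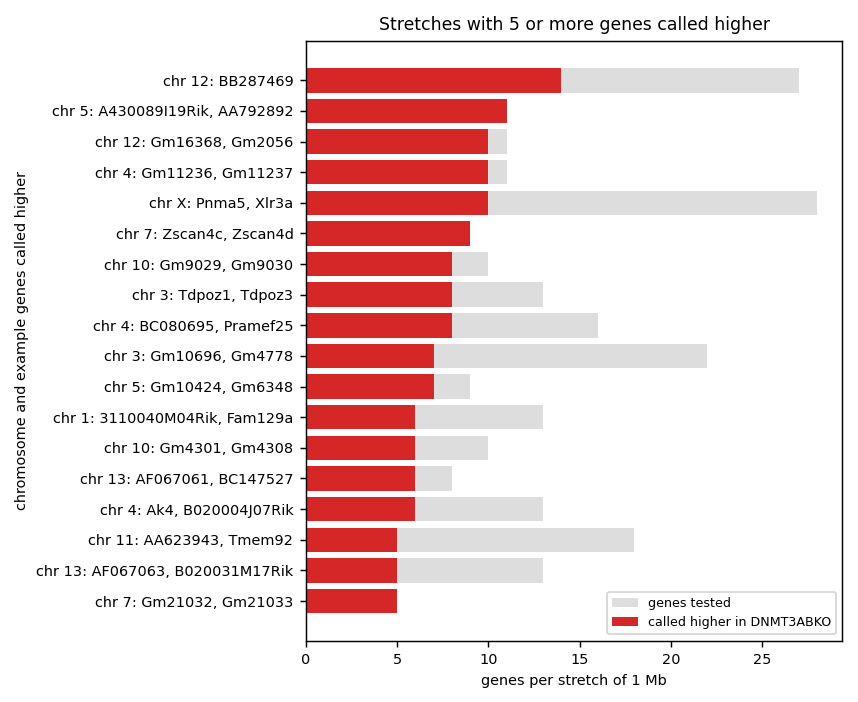
The 18 stretches of 1 Mb with at least 5 genes called higher, by chromosome and 1 or 2 example genes. Grey bars give the number of genes tested and red bars the number called higher. All tested genes of the Zscan4 stretch were called, and 10 of 28 in the Xlr stretch.

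Outside these families, the knockout-only gains named here were Ccser1, Sp110 and Chit1, which KH cells held at no more than 0.262 TPM at 0 h and 144 h. They passed the filter on low values through DNMT3ABKO, where they are high. At such KH values the pseudocount of 1 TPM holds a KH response small, so it is not shown to be absent. The ranking left out predicted genes and genes with no group mean of at least 5 TPM. Ccser1 (ENSMUSG00000039578.17, mm10 chr6:61180324-62382865), a coiled-coil serine-rich protein gene, stood at 0.0728 and 0.0659 TPM at 0 h and 0.1402 and 0.122 TPM at 144 h in KH. In DNMT3ABKO it stood at 0.229 and 1.04 TPM and at 14.5 and 14.4 TPM, and the difference was 3.200 (SE 0.30, adjusted p = 0.000458). Its 0 h replicates in DNMT3ABKO were far apart, but both lay below every library of that line at 72 h (3.09 and 4.02 TPM). Sp110 (ENSMUSG00000070034.13, mm10 chr1:85576899-85598817), a nuclear body protein induced by interferon, went from 0.609 and 0.413 TPM to 12.3 and 11.4 TPM in DNMT3ABKO and stayed between 0.106 and 0.206 TPM in KH at those times. Its difference was 3.16 (SE 0.18, adjusted p = 6.86e-05). Chit1, a chitinase of macrophages, stood at 0.968 and 1.27 TPM at 0 h and 12.6 and 13.5 TPM at 144 h in DNMT3ABKO and at most 0.262 TPM in KH, a difference of 2.91 (SE 0.19, adjusted p = 7.14e-05). The macrophage marker sum fell in DNMT3ABKO over the same time, from 288 to 312 TPM to 41.3 to 43.2 TPM. Of 13 tested members of an interferon and MHC class I list, the ones called were Psmb8 (-0.89) and Oasl2 (-0.83), both lower, with a list median of -0.18. Psmb8 encodes an immunoproteasome subunit, and Oasl2 a protein of the oligoadenylate synthetase family. Both of these calls ended without any 1 of the 6 libraries other than DNMT3ABKO at 0 h, with differences of -1.02 to -0.77 and -0.92 to -0.75 over the 8 fits, and that of Oasl2 also ended without replicate 1 of DNMT3ABKO at 0 h. Both ended without the filter on low values and with a weight per group, and that of Oasl2 with a replicate block, a fit that takes the replicate number within each line into account (adjusted p = 0.0628).

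One knockout-only gene fell to a listed value of 0. Pagr1b (ENSMUSG00000092534.8, mm10 chr7:127001480-127016484), whose product belongs to histone methyltransferase complexes, was listed at 0 in both DNMT3ABKO libraries at 144 h and in both at 72 h, after 7.58 and 9.15 TPM at 0 h. In KH it stood at 2.41 and 0.9696 TPM at 0 h and 1.74 and 4.68 TPM at 144 h, so its replicates there differed by more than 2-fold. The difference was -3.83 (SE 0.50, adjusted p = 0.00317). It has a near-identical copy, Pagr1a, between which reads can be split, so the value is uncertain.

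Germline genes silenced by promoter methylation moved unevenly. Of 22 listed, 18 were tested and 6 were called higher (Tuba3b, Dazl, Sycp1, Asz1, Tex19.1 and Rpl10l), with a median difference of 0.27. Of the 18, 15 reached a mean of 1 TPM in a KH group. Tuba3b and Asz1 did not, so they passed the filter on low values through the DNMT3ABKO libraries, where they are high. The response of the 18 passed the test upwards in 11 genes in KH and 15 in DNMT3ABKO, so rising was common to both lines. Dazl (ENSMUSG00000010592.9, mm10 chr17:50279395-50293636), an RNA-binding protein of germ cells, stood at 1.99 and 2.299 TPM at 0 h and 6.45 and 5.25 TPM at 144 h in KH. In DNMT3ABKO it stood at 7.04 and 11.99 TPM and 60.4 and 70.9 TPM, and at 67.2 and 59.8 TPM at 72 h. Every treated DNMT3ABKO library lay above every KH library, and the difference was 1.58 (SE 0.31, adjusted p = 0.0258). Sycp1, the transverse filament of the synaptonemal complex, went from 1.67 and 1.28 to 3.79 and 3.24 TPM in KH and from 1.66 and 2.34 to 11.6 and 12.8 TPM in DNMT3ABKO, a difference of 1.27 (SE 0.22, adjusted p = 0.0143). The gap between the lines did not pass at 0 h (adjusted p = 0.383) and passed at 144 h (adjusted p = 0.000318). Stra8, which retinoic acid induces at the entry to meiosis, rose in both lines, from 1.59 and 1.55 to 18.02 and 18.8 TPM in KH and from 5.23 and 3.72 to 81.7 and 86.1 TPM in DNMT3ABKO (difference 1.05 (SE 0.19, adjusted p = 0.02)). Asz1, a germ cell protein of the piRNA pathway, was at most 0.0373 TPM in KH at 0 h, was listed at 0 in both KH libraries at 144 h and stood at 1.35 and 1.69 TPM and 4.07 and 4.07 TPM in DNMT3ABKO. Other members did not pass: Ddx4 (0.04), Hormad1 (0.04) and Fkbp6 (0.03) were near 0, and Sycp3 (-0.42) and Tex11 (-0.40) were below it. Of 15 tested meiosis genes, Stra8 and Sycp1 were called, both higher (median 0.13). The calls of Dazl, Asz1 and Stra8 ended without any 1 of the 4 KH libraries or of the 2 DNMT3ABKO 144 h libraries, with differences of 1.24 to 1.93, 0.94 to 1.13 and 0.85 to 1.25 over the 8 fits. The call of Sycp1 ended without KH 0 h replicate 1, KH 144 h replicate 2 or either DNMT3ABKO 144 h library (1.11 to 1.44). That of Rpl10l ended without KH 0 h replicate 1 or any 144 h library (0.66 to 0.80). The calls of Dazl and Stra8 also ended without the filter on low values, and those of Dazl, Stra8 and Asz1 with a pseudocount of 0.1 TPM.

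The promoters of Dazl, Sycp1 and Stra8 are shown as starts of the called germline and meiosis genes described above. Promoters matched for 16 of the 18 tested germline genes, and these held a median of 20.5 CG and never fewer than 12. The E-box CACGTG, which reads the same on both strands, was present in 10 of the 16 (62.5%) and in 7.15% of all RefSeq promoters of this length. It was present in 1 of the 6 members called higher, Sycp1. Dazl (chr17:50293571-50293870, minus strand) holds 28 CG, Sycp1 (chr3:102936051-102936350, minus strand) 21 and Stra8 (chr6:34920698-34920997, plus strand) 10, with each CG in capitals.
Dazl: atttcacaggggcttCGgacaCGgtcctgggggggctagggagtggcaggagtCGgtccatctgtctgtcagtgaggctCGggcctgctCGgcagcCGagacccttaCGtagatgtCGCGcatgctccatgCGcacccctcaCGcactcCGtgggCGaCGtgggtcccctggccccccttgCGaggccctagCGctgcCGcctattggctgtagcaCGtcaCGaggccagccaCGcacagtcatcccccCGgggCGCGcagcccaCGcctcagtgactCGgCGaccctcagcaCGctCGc
Sycp1: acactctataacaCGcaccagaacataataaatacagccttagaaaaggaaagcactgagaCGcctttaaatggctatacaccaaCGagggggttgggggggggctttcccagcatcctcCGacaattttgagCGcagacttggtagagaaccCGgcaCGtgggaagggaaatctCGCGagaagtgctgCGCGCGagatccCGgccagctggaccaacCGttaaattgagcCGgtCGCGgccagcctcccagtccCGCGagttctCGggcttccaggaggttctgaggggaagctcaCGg
Stra8: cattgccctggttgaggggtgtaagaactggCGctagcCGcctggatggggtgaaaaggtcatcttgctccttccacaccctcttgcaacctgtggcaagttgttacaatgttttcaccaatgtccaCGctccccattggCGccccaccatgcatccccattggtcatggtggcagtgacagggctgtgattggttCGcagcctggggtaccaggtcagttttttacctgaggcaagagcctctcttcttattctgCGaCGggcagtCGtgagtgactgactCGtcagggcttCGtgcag

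The lines moved in opposite directions in 56 genes. Gpc3 (ENSMUSG00000055653.13, mm10 chrX:52272426-52613950), a cell-surface heparan sulfate proteoglycan, rose in KH from 27.5 and 31.02 TPM to 46.4 and 45.3 TPM. In DNMT3ABKO it fell from 99.1 and 103 TPM to 37.3 and 38.2 TPM. The line gap of 0 h no longer passed the test at 144 h (adjusted p = 3.44e-05 at 0 h and 0.0592 at 144 h), and the difference in response was -2.03 (SE 0.12, adjusted p = 6.86e-05). P4ha2 (ENSMUSG00000018906.14, mm10 chr11:54100095-54131665), the catalytic subunit of a collagen prolyl hydroxylase, fell in KH from 10.6 and 11.1 TPM to 5.52 and 5.19 TPM. In DNMT3ABKO it rose from 11.4 and 12.4 TPM to 22.7 and 24.2 TPM after 8.84 and 8.52 TPM at 72 h, a difference of 1.82 (SE 0.14, adjusted p = 0.000128). The sum of the 29 fibroblast markers fell over the same time in both lines. Of the 28 tested, 26 passed the test downwards in KH, and 27 passed downwards and 1 upwards in DNMT3ABKO. The part of such cells in the values of P4ha2 was not tested. Limch1, an activator of non-muscle myosin, showed the same form at lower levels, with 0.555 and 0.444 TPM in KH and 5.57 and 6.26 TPM in DNMT3ABKO at 144 h (difference 1.92 (SE 0.22, adjusted p = 0.00124)). Bola1, a mitochondrial protein linked to iron-sulfur clusters, fell in KH from 17.7 and 18.6 TPM to 8.24 and 9.46 TPM and rose in DNMT3ABKO from 21.1 and 18.6 TPM to 36.9 and 32.1 TPM (difference 1.73 (SE 0.16, adjusted p = 0.000408)). Among transcription factors, Cebpa, known from adipocytes and myeloid cells, went from 3.06 and 3.65 to 2.15 and 2.16 TPM in KH and from 3.65 and 3.99 to 10.2 and 8.71 TPM in DNMT3ABKO (difference 1.57 (SE 0.18, adjusted p = 0.00131)). The zinc-finger gene Sall2 did the reverse. It rose in KH from 5.58 and 5.87 TPM to 9.15 and 9.43 TPM and fell in DNMT3ABKO from 5.35 and 5.58 TPM to 2.01 and 2.57 TPM, a difference of -1.59 (SE 0.17, adjusted p = 0.000815).

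**Figure D4:**
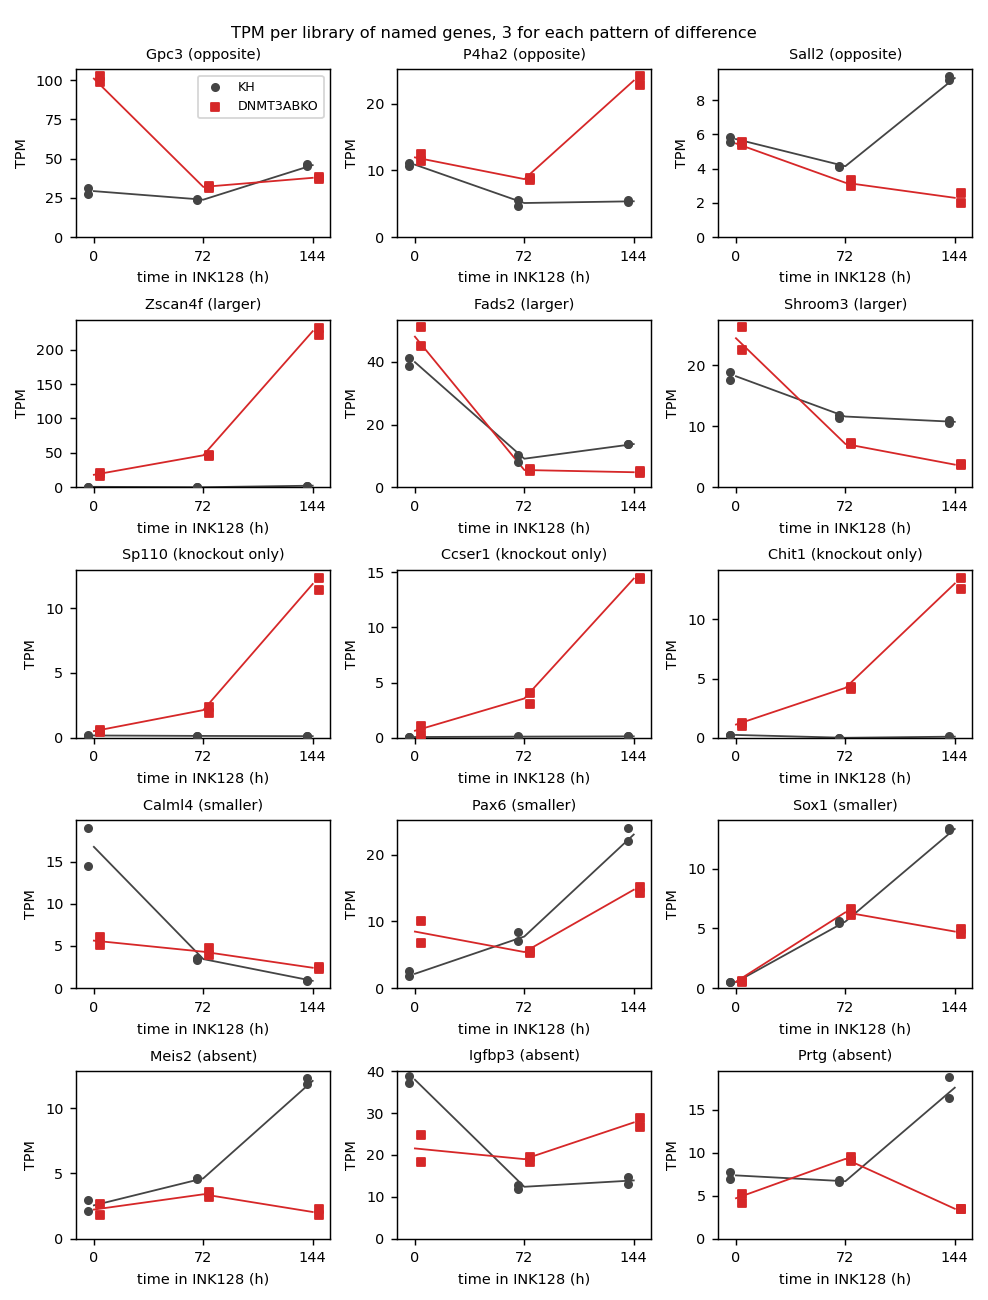
TPM of each library at 0, 72 and 144 h for 15 genes, 3 for each pattern of difference, with KH in black and DNMT3ABKO in red and lines through the means of 2 libraries. In the top row P4ha2 ends at 22.7 and 24.2 TPM in DNMT3ABKO and 5.52 and 5.19 TPM in KH, and in the bottom row Meis2 ends at 1.82 and 2.25 TPM and 12.3 and 11.9 TPM.

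Pax6 and Sox1, regulators of the early nervous system, rose in both lines and less in DNMT3ABKO, and Meis2, Prtg and Bcl11a, which were named for the size of their differences, rose in KH and did not pass the test in DNMT3ABKO. Pax6 (ENSMUSG00000027168.21, mm10 chr2:105668900-105697364), a paired-box factor of the neural tube and eye, went from 1.800 and 2.51 TPM to 22.04 and 24.03 TPM in KH. It went from 6.84 and 10.1 TPM to 14.3 and 15.2 TPM in DNMT3ABKO, where it began higher, and the difference was -2.18 (SE 0.26, adjusted p = 0.00161). Sox1, an HMG-box factor of the neural plate, overlapped between the lines at 0 h, at 0.492 and 0.521 TPM and 0.478 and 0.599 TPM. At 72 h it was still close (5.66 and 5.496 TPM in KH and 6.59 and 6.12 TPM in DNMT3ABKO), and at 144 h it stood at 13.3 and 13.4 TPM in KH and 4.54 and 4.95 TPM in DNMT3ABKO. Its difference was -1.35 (SE 0.16, adjusted p = 0.00166). Meis2 (ENSMUSG00000027210.20, mm10 chr2:115863064-116065839), a homeobox cofactor, rose in KH from 2.12 and 2.97 to 12.3 and 11.9 TPM, while in DNMT3ABKO it stood at 1.79 and 2.65 and 1.82 and 2.25 TPM, a difference of -1.97 (SE 0.25, adjusted p = 0.00247). Prtg, a receptor of the DCC family in the early neural tube, rose in KH from 6.98 and 7.74 to 18.8 and 16.4 TPM and stood at 4.15 and 5.24 and 3.48 and 3.47 TPM in DNMT3ABKO (difference -1.49 (SE 0.18, adjusted p = 0.0023)). At 72 h Prtg had stood higher in DNMT3ABKO (9.52 and 9.05 TPM) than in KH (6.78 and 6.58 TPM). Bcl11a, a zinc-finger repressor of brain and blood cells, rose in KH from 1.44 and 1.701 to 6.01 and 5.77 TPM and stood at 1.18 and 1.45 and 1.48 and 1.84 TPM in DNMT3ABKO (difference -1.22 (SE 0.19, adjusted p = 0.00758)). At 72 h Bcl11a had stood close, at 3.55 and 3.78 TPM and 3.52 and 3.54 TPM. Of 17 genes on a list of early neural genes, 9 were tested, and 8 of the 9 differences were below 0 (median -0.33). Of the 9, those called were Pax6 and Sox1. Sox11 and Sox21 rose in both lines, by 0.999 and 1.84 in KH and 0.88 and 1.63 in DNMT3ABKO, and Nes, Tubb3 and Ncam1 fell in KH. The differences of Nes (-0.41), Hes5 (-0.34), Dll1 (-0.33), Sox21 (-0.21), Ncam1 (-0.20), Sox11 (-0.12) and Tubb3 (0.10) did not pass.

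The promoters of Pax6 and Meis2 are shown as starts of genes whose rise was smaller in DNMT3ABKO or did not pass there. Pax6 (chr2:105668646-105668945, plus strand) holds 18 CG and Meis2 (chr2:116064570-116064869, minus strand) 13, and the RefSeq start of Meis2 lies 1220 bases from the start in the files.
Pax6: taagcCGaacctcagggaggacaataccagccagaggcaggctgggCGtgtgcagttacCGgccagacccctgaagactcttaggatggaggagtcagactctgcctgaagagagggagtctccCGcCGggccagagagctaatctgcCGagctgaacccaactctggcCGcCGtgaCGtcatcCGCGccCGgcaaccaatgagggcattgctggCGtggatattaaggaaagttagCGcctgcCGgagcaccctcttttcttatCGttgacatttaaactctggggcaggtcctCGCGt
Meis2: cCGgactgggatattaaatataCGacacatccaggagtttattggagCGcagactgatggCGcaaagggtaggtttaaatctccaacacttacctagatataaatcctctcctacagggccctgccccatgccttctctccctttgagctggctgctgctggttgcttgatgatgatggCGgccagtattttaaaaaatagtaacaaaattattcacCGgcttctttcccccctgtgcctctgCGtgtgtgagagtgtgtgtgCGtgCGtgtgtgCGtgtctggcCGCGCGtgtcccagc

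Of 15 tested genes of the formative epiblast, the state that follows naive pluripotency, 5 were called lower (Sall2, Lefty1, Zic2, Lefty2 and Sox4) and 1 higher (Fgf5), with a median of -0.10. Lefty1, a secreted Nodal inhibitor, rose from 57.05 and 60.4 to 94.5 and 106 TPM in KH and fell from 81.95 and 78.7 to 62.7 and 55.03 TPM in DNMT3ABKO, a difference of -1.202 (SE 0.14, adjusted p = 0.00126). Zic2, a zinc-finger factor, rose in both lines and began higher in DNMT3ABKO, at 48.6 and 60.5 TPM against 24.3 and 25.1 TPM, ending at 104 and 102 and 87.8 and 87.9 TPM (difference -0.87 (SE 0.15, adjusted p = 0.0143)). The growth factor genes Fgf5 and Fgf8 fell in both lines from a higher start in KH. Fgf8, a signal of the primitive streak, stood at 16.4 and 13.8 TPM in KH and 5.14 and 5.29 TPM in DNMT3ABKO at 0 h and at 1.19 and 1.19 TPM and 0.904 and 1.52 TPM at 144 h, a difference of 1.37 (SE 0.22, adjusted p = 0.0105). It was the 1 of 7 tested mesoderm genes that was called (median 0.53). Calml4, a calmodulin-like gene, behaved likewise, with 18.96 and 14.5 TPM and 6.12 and 5.15 TPM at 0 h and 0.793 and 0.945 TPM and 2.31 and 2.53 TPM at 144 h in KH and DNMT3ABKO (difference 2.28 (SE 0.21, adjusted p = 0.000408)). Sprr2a2, an epidermal cornified envelope gene, went from 6.11 and 5.85 TPM to 0 in KH. In DNMT3ABKO it went from 0.807 and 0.749 TPM to 0.00783 and 0 TPM, so it ended near 0 in both lines. Its start in DNMT3ABKO was under 1 TPM, where the pseudocount of 1 TPM holds a response small. The gene has near-identical copies, so its single value is uncertain. The call of Fgf8 ended without KH 0 h replicate 1 (1.17 to 1.57 over the 8 fits). That of Zic2 ended without any library other than the DNMT3ABKO 0 h ones (-1.03 to -0.72), and that of Fgf5 without any but DNMT3ABKO 0 h replicate 2 and DNMT3ABKO 144 h replicate 2 (0.81 to 1.203). Pluripotency genes themselves gave few calls: of 15 tested naive genes Dppa3 alone was called, with a difference of -0.64 (median 0.04), and of 11 core genes none was by limma (median -0.05; 3 at an unadjusted p under 0.05). The calls of Dppa3 (-0.76 to -0.53), Lefty2 (-0.66 to -0.48) and Sox4 (-0.61 to -0.48) ended without any library other than the DNMT3ABKO 0 h ones. Those of Fgf5, Lefty2 and Dppa3 ended without the filter on low values, those of Fgf5, Sox4 and Dppa3 with a weight per group, and that of Fgf5 with a pseudocount of 0.1 TPM. With a replicate block Fgf5 (adjusted p = 0.0574) and Sox4 (adjusted p = 0.0774) were not called.

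Fads2 and Scd2, genes of fatty acid desaturation, fell in both lines and further in DNMT3ABKO. Fads2 (ENSMUSG00000024665.7, mm10 chr19:10064164-10101503), the delta-6 fatty acid desaturase, went from 38.5 and 41.2 to 13.8 and 13.8 TPM in KH and from 44.9 and 51.05 to 4.48 and 5.18 TPM in DNMT3ABKO. The line gap did not pass at 0 h (adjusted p = 0.229) and did at 144 h (adjusted p = 6.47e-05), and the difference in response was -1.61 (SE 0.15, adjusted p = 0.000382). Scd2, a stearoyl-CoA desaturase, fell from 209 and 228 to 109 and 105 TPM in KH and from 210.4 and 259 to 60.5 and 62.1 TPM in DNMT3ABKO (difference -0.89 (SE 0.15, adjusted p = 0.0134)). Both are among 13 tested genes of fatty acid synthesis, of which no other was called (median -0.40), with Scd1 at -0.95, Fads1 at -0.60 and Me1 at 0.41. Each of the 20 genes of sterol synthesis had a difference below 0, from -0.79 (Cyp51) to -0.15 (Acat2) with a median of -0.45, against 0.01 over all tested genes. Cyp51 and Acat2 themselves did not pass. By limma 1 of the 20 was called, lower, beside 5.14% of all tested genes called, and without the filter on low values 0 were. The members were measured in the same libraries, so their signs are not independent. The call of Scd2 ended without KH 0 h replicate 1 or any 144 h library, with differences of -1.04 to -0.74. Shroom3, an actin-binding protein of epithelial folding, and Gstm2, a glutathione transferase, had the same form (both were picked for their values). Shroom3 ended at 10.98 and 10.5 TPM in KH and 3.698 and 3.75 TPM in DNMT3ABKO (difference -1.71 (SE 0.15, adjusted p = 0.000291)), and Gstm2 at 6.54 and 7.12 and 1.35 and 1.15 TPM (difference -1.600 (SE 0.24, adjusted p = 0.00716)).

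The called glycolysis genes were lower as well. Of 17 tested, 5 were called, all lower (median -0.25). Pfkm (ENSMUSG00000033065.14, mm10 chr15:98092589-98132451), the muscle-type phosphofructokinase, went from 17.8 and 19.01 to 12.3 and 13.1 TPM in KH and from 13.5 and 13.1 to 2.499 and 3.14 TPM in DNMT3ABKO, a difference of -1.41 (SE 0.16, adjusted p = 0.00133). Its isozymes Pfkp (-0.52) and Pfkl (-0.35) did not pass. Hk1, a hexokinase, ended at 9.61 and 9.41 TPM in KH and 5.98 and 5.71 TPM in DNMT3ABKO (difference -0.74 (SE 0.14, adjusted p = 0.0254)). The other 3 were Eno1 (-0.62), which has a near-identical copy and is uncertain, Tpi1 (-0.49) and Pgk1 (-0.46). Apart from Pfkm, calls of the named genes ended when single libraries were left out; for Hk1 these were KH 0 h replicate 1 and each 144 h library (-0.84 to -0.63 over the 8 fits), and for Eno1 (-0.68 to -0.55), Tpi1 (-0.54 to -0.44) and Pgk1 (-0.49 to -0.44) each library other than the DNMT3ABKO 0 h ones. Of 29 tested DNA replication genes, Rrm2, the ribonucleotide reductase subunit M2 (-0.80), and Pold1, the catalytic subunit of DNA polymerase delta (-0.49), were called lower and 23 differences were below 0 (median -0.23). Over all tested genes 1.68% were called lower and the median difference was 0.01. Rrm2 was not called without KH 0 h replicate 1 or any 144 h library (-0.93 to -0.67), and Pold1 without any but the DNMT3ABKO 0 h ones (-0.55 to -0.42). With a replicate block the calls of Eno1 (adjusted p = 0.0619), Tpi1 (adjusted p = 0.0636), Pgk1 (adjusted p = 0.0816) and Pold1 (adjusted p = 0.0811) ended. That of Eno1 also ended without the filter, and that of Pold1 with a pseudocount of 0.1 TPM or a weight per group. No gene was called by limma among 44 ribosomal protein genes (median -0.03; 1 at an unadjusted p under 0.05), 17 of ribosome assembly (0.11; 1), 18 of mitosis (0.07; 1) and 20 of the lysosome (0.11; 7).

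Signalling and imprinted genes gave scattered calls, beside 5.14% of all tested genes called in either direction. Of 12 tested feedback genes of FGF and ERK signalling, 3 were called higher (median 0.32). Egr1, an immediate-early zinc-finger factor, fell from 56.03 and 62.4 to 33.4 and 35.8 TPM in KH and rose from 44.7 and 54.8 to 68.5 and 69.2 TPM in DNMT3ABKO, a difference of 1.22 (SE 0.16, adjusted p = 0.00281), after a peak in both lines at 72 h (106 and 99.97 TPM in KH and 182 and 174 TPM in DNMT3ABKO). The ERK antagonists Spry4 (0.67) and Spry2 (0.60) rose in both lines and further in DNMT3ABKO. In the p53 list of 15 tested, Pmaip1, a pro-apoptotic BH3 gene, was called higher (0.92 (SE 0.11, adjusted p = 0.00173)), with 55.2 and 54.4 TPM in KH and 85.9 and 91.3 TPM in DNMT3ABKO at 144 h. Single members were called in the Atf4 list (Ddit3, 1.05, of 18 tested) and the Wnt list (Axin2, 0.63, of 8 tested). Of 14 tested autophagy genes Sqstm1 was called higher (0.55) and Optn lower (-0.65), both of them receptors that carry cargo into autophagosomes. Of 27 tested imprinted genes 5 were called higher (Peg10, Peg12, Magel2, Zrsr1 and Grb10) and Peg3 lower (median -0.08). Peg10, a gene derived from a retrotransposon, stood at 79.4 and 87.2 TPM in KH and 26.3 and 35.96 TPM in DNMT3ABKO at 0 h and at 77.96 and 65.4 and 60.2 and 60.2 TPM at 144 h, so that the gap was narrower at 144 h than at 0 h (difference 1.16 (SE 0.21, adjusted p = 0.0185)). In between, at 72 h, Peg10 was higher in DNMT3ABKO (122.8 and 122.0 TPM) than in KH (65.6 and 64.8 TPM). The calls of Spry4 (0.54 to 0.79), Spry2 (0.52 to 0.68), Axin2 (0.54 to 0.73) and Optn (-0.69 to -0.61) ended without any library other than the DNMT3ABKO 0 h ones. That of Ddit3 ended without any KH library or DNMT3ABKO 144 h replicate 2 (0.84 to 1.26), that of Sqstm1 without KH 0 h replicate 2 or any 144 h library (0.47 to 0.62), and that of Peg10 without any KH 0 h library, KH 144 h replicate 2 or any DNMT3ABKO 144 h library (0.95 to 1.38). Those of Peg12 (0.82 to 1.27) and Magel2 (0.89 to 1.19) ended without KH 0 h replicate 2 or any 144 h library, that of Peg3 (-0.89 to -0.62) without those libraries other than KH 144 h replicate 2 and without KH 0 h replicate 1, and those of Zrsr1 (0.73 to 1.02) and Grb10 (0.57 to 0.86) without any library other than the DNMT3ABKO 0 h ones. Leaving out the filter on low values ended the calls of the 6 imprinted genes, Spry4, Spry2, Axin2 and Ddit3. A pseudocount of 0.1 TPM ended the calls of Axin2, Optn, Zrsr1 and Grb10, a weight per group those of Axin2, Ddit3, Optn and Peg3, and median-ratio scaling that of Ddit3. With a replicate block Axin2 (adjusted p = 0.0791), Ddit3 (adjusted p = 0.0703), Sqstm1 (adjusted p = 0.0567) and Optn (adjusted p = 0.0828) were not called. Of 6 tested Rhox homeobox genes of the X chromosome, Rhox13 was called higher (1.65 (SE 0.19, adjusted p = 0.00135)), with 0.529 and 0.287 TPM in KH and 4.12 and 4.36 TPM in DNMT3ABKO at 144 h, and Rhox9 lower (-0.74; -0.84 to -0.64 when single libraries were left out, without a call in 6 of the 8 fits). Rhox13 had a mean under 1 TPM in both KH groups, so it passed the filter through DNMT3ABKO. The call of Rhox9 also ended with a replicate block (adjusted p = 0.0648), a pseudocount of 0.1 TPM, median-ratio scaling and no filter.

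Markers of other cells differed too. All 14 tested macrophage genes had a difference above 0, with a median of 0.68, and 5 were called higher (Lyz2, Cd14, Itgam, Mrc1 and C1qb). Lyz2, the macrophage lysozyme, fell in both lines, from 175 and 184 to 4.21 and 3.66 TPM in KH and from 146 and 164 to 8.85 and 9.05 TPM in DNMT3ABKO, a difference of 1.23 (SE 0.14, adjusted p = 0.00113). Itgam, an integrin chain of myeloid cells, ended at 0.345 and 0.319 TPM in KH and 1.09 and 1.21 TPM in DNMT3ABKO (difference 1.09 (SE 0.16, adjusted p = 0.00596)). In these bulk samples fewer cells of a type and less RNA per cell cannot be told apart. Aif1 and C1qb were listed at 0 in KH at 144 h, and Aif1 in DNMT3ABKO. The calls of Cd14 and Mrc1 ended without single libraries, for Cd14 KH 0 h replicate 2, KH 144 h replicate 2 and DNMT3ABKO 144 h replicate 1 (1.02 to 1.22) and for Mrc1 each library but the DNMT3ABKO 0 h ones (0.78 to 1.01). Of 28 tested fibroblast genes, Fstl1 alone was called, with a difference of -0.82 (median -0.10), and not without KH 0 h replicate 1 or any 144 h library (-0.95 to -0.69). That of C1qb ended without the same libraries as Mrc1 (0.76 to 0.93), and a replicate block ended those of Mrc1 (adjusted p = 0.0626) and C1qb (adjusted p = 0.0595). Without the filter Mrc1, Fstl1 and Fry were not called. Several absent or smaller responses were of genes that stromal cells also express. Igfbp3, a binding protein of insulin-like growth factors, fell in KH from 37.2 and 38.7 to 14.7 and 13.1 TPM and stood at 18.2 and 24.8 and 26.6 and 28.9 TPM in DNMT3ABKO (difference 1.75 (SE 0.20, adjusted p = 0.00138)). Ddr2, a collagen receptor, fell from 12.2 and 16.9 to 2.21 and 2.13 TPM in KH and from 13.9 and 15.9 to 8.16 and 7.003 TPM in DNMT3ABKO (difference 1.38 (SE 0.22, adjusted p = 0.011)), and was not called without KH 144 h replicate 2 or DNMT3ABKO 144 h replicate 1 (1.17 to 1.602). Over the same time the summed fibroblast markers fell to 751 to 842 TPM in KH and 574 to 600.5 TPM in DNMT3ABKO, and their part in these differences was not tested. Car2, a carbonic anhydrase, fell in KH from 48.02 and 52.8 to 18.9 and 17.7 TPM and stood at 19.6 and 25.3 and 20.4 and 21.7 TPM in DNMT3ABKO (difference 1.34 (SE 0.18, adjusted p = 0.00361)). Fry, a scaffold protein of the mitotic spindle, had 4.21 and 3.87 TPM and 9.89 and 9.23 TPM in KH and 9.26 and 13.97 TPM and 10.1 and 9.89 TPM in DNMT3ABKO (difference -1.24 (SE 0.24, adjusted p = 0.0255)), and its call ended without any library other than the DNMT3ABKO 0 h ones (-1.51 to -0.96).

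**Figure D5:**
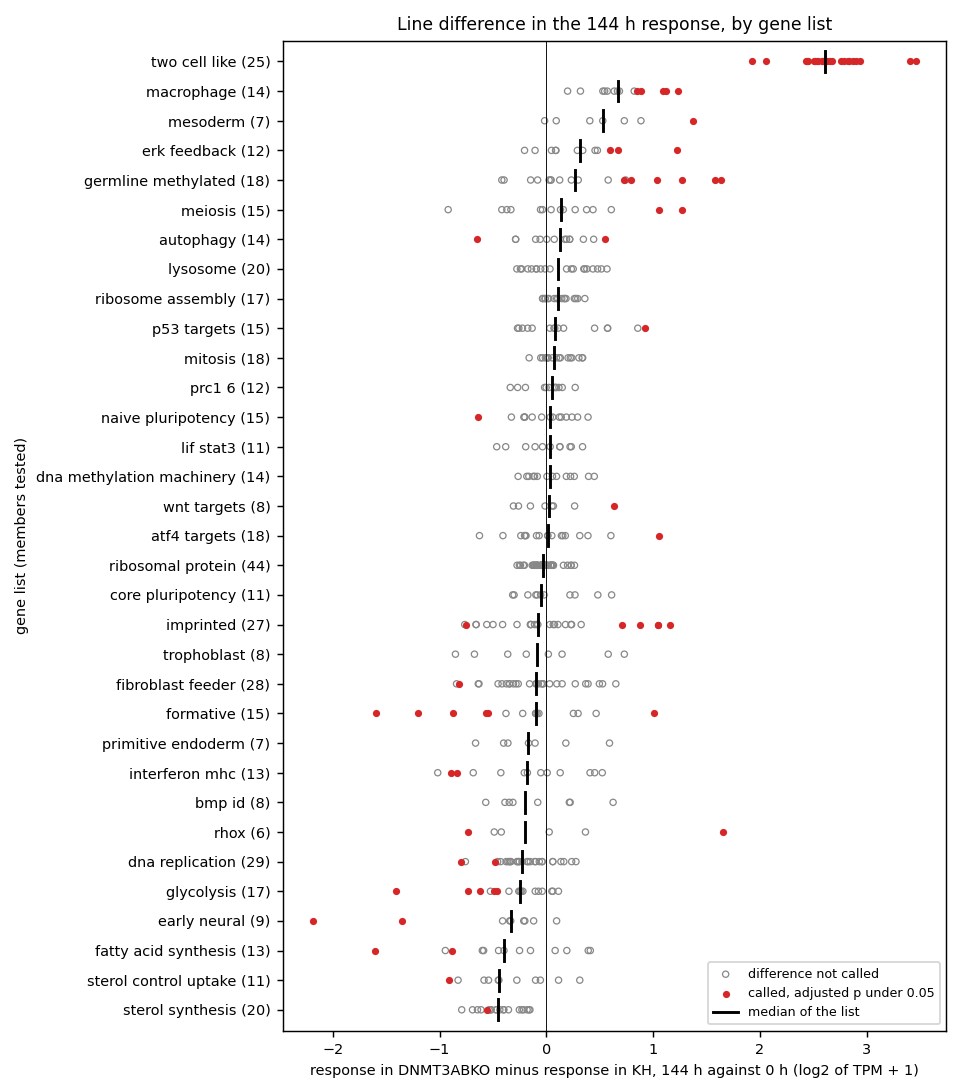
Difference in the 144 h response, DNMT3ABKO minus KH in log2 of TPM + 1, for the tested members of 33 gene lists, ordered by the list median (black bars). Filled red points were called (limma, adjusted p under 0.05) and open points were not. The two-cell-like list stands alone, from 1.93 to 3.47, and the medians of all other lists lie between -0.45 and 0.68.

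The remaining lists gave no call by limma. These were the PRC1.6 repressor complex (12 tested, median 0.05; 0 at an unadjusted p under 0.05), the DNA methylation machinery (14, 0.03; 3), primitive endoderm (7, -0.17; 2), trophoblast (8, -0.08; 4), BMP and Id genes (8, -0.20; 3) and LIF and STAT3 genes (11, 0.04; 1). Members of the first and second of these lists, which act at germline and methylated promoters, differed by between -0.34 and 0.45.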

How the data were processed

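The 12 libraries hold total RNA of sorted live cells after removal of ribosomal RNA. Per the labels, reads were trimmed with cutadapt 2.4, aligned to mm10 with STAR 2.7.3a and quantified with StringTie 2.0; the study's methods name later versions of both. The authors deposited TPM per gene, which is scaled to 1000000 per library, and spike-in rows were not used here because the files list 0 of them. TPM values are not counts, so no count model was fitted, although the methods name one.

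Rows that repeat a gene identifier (9 to 16 per library) were summed. Genes whose mean over these libraries reached 1 TPM were fitted on log2(TPM + 1) with limma 3.58.1 (R 4.3.3; a coefficient per group, trended prior, two-sided tests) and p-values were adjusted by Benjamini-Hochberg over all 15689 genes. The pseudocount makes fold changes of low genes too small. Where a gene is low in 1 line and not in the other, this can widen the difference between the lines. The study's reporting summary states that experiments were repeated independently and that the time points of one replicate were handled together, without naming single libraries. The replicate number was therefore also fitted as a block within each line; deviations of same-numbered libraries correlated at 0.08 in KH and 0.10 in DNMT3ABKO. With 2 against 2 libraries no exact permutation test of a single gene can pass, and the fit across genes was used. The fit was first tested on simulated data. Of 200 genes given a difference of 1 on the log2 scale, 90 (45%) were called, and 6.25% of all calls were false. The simulation gave each gene the same spread in all groups, whereas DNMT3ABKO at 0 h had the widest in the data.

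The genes and lists were chosen with earlier results of these data known. Named genes are, for each pattern, the 6 largest differences among called genes with the same sign in all 16 library combinations and a group mean of at least 5 TPM, without predicted genes, small RNAs, pseudogenes and histones, and up to 4 called members per list. Tex19.1, Rpl10l, Lefty2, Sox4, Grb10, Peg3, C1qb and Pgk1 complete short counts, and the Tdpoz, Tcstv and Pramef genes, Shroom3, Gstm2, Fads2 and the summed families were picked after their values were seen. Gene identifiers matched GENCODE M21 in 54409 of 54446 cases, which gave the gene types. Promoters (300 bases) are from RefSeq. Alternatives were another pseudocount, no filter, all 12 libraries, group weights, a replicate block, median-ratio scaling, a fold limit, and leaving out each library. Some genes that this rule names are not reported here.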

Additional observations from a re-analysis of the deposited data

Results flagged for a closer look

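The called genes with a value or name in the report are listed here because the test of the difference itself found unequal 144 h responses in the lines. The value after each name is the response in DNMT3ABKO minus that in KH on the log2(TPM + 1) scale. In the families of the two-cell-like state these were BB287469 (3.41), Usp17lb (3.47), Usp17lc (2.94), AF067061 (2.902), Usp17le (2.87), Usp17la (2.84), Zscan4f (2.62), Tmem92 (2.595), Zscan4d (2.54) and Zscan4e (2.53). Other members called there were Tdpoz1 (2.06), Tdpoz3 (2.82), Tdpoz4 (2.44), Tcstv1 (2.45) and Tcstv3 (2.76), and Pramef genes gave Pramef6 (2.32) and Pramef25 (2.67). Other knockout-only gains were Ccser1 (3.200), Sp110 (3.16) and Chit1 (2.91), and the knockout-only loss was Pagr1b (-3.83). Germline and X-linked genes were Tuba3b (1.63), Dazl (1.58), Sycp1 (1.27), Stra8 (1.05), Asz1 (1.04), Tex19.1 (0.79), Rpl10l (0.73), Rhox13 (1.65) and Rhox9 (-0.74).

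Opposite movement was found in Gpc3 (-2.03), Limch1 (1.92), P4ha2 (1.82), Bola1 (1.73), Sall2 (-1.59), Cebpa (1.57), Lefty1 (-1.202) and Egr1 (1.22). Regulators of neural and epiblast development were Pax6 (-2.18), Sox1 (-1.35), Meis2 (-1.97), Prtg (-1.49), Bcl11a (-1.22), Zic2 (-0.87), Lefty2 (-0.57), Sox4 (-0.54), Fgf5 (1.01), Fgf8 (1.37) and Dppa3 (-0.64). Among genes of metabolism and replication the values were Fads2 (-1.61), Scd2 (-0.89), Pfkm (-1.41), Hk1 (-0.74), Eno1 (-0.62), Tpi1 (-0.49), Pgk1 (-0.46), Rrm2 (-0.80), Pold1 (-0.49) and Gstm2 (-1.600). Signalling, stress and autophagy genes gave Spry4 (0.67), Spry2 (0.60), Axin2 (0.63), Pmaip1 (0.92), Ddit3 (1.05), Sqstm1 (0.55), Optn (-0.65), Psmb8 (-0.89) and Oasl2 (-0.83), and imprinted genes gave Peg10 (1.16), Peg12 (1.04), Magel2 (1.04), Zrsr1 (0.88), Grb10 (0.71) and Peg3 (-0.75). Genes of macrophages and stroma gave Lyz2 (1.23), Cd14 (1.12), Itgam (1.09), Mrc1 (0.89), C1qb (0.85), Fstl1 (-0.82), Igfbp3 (1.75) and Ddr2 (1.38). The rest were Calml4 (2.28), Sprr2a2 (1.98), Car2 (1.34), Fry (-1.24) and Shroom3 (-1.71). With 2 libraries per group, no test for a library that stands apart was possible within a group.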

How the results depend on the processing

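None of the called genes listed by name above changed sign under the alternatives tried. The count of genes with a different response was 692 with a pseudocount of 0.1 TPM and 692 with a weight per group. With all 12 libraries it was 1401 (592 lower; opposite 103, larger 390, smaller 111, absent 214), and with median-ratio scaling 1348 (543 lower; 109, 388, 90 and 181 in the same order). A difference of at least 1 left 488 (73 lower; 37, 77, 15 and 34). Without the filter there were 1244 (990 higher, 874 knockout only), since more genes were tested. Sorted by fitted responses alone, 90 genes were opposite. The lines differed at 0 h in 273 genes with group weights and 1444 with 12 libraries, and at 144 h in 6105 with group weights. Leaving out 1 library gave 412 to 2394 genes (356 to 1787 higher, 56 to 607 lower; opposite 20 to 185, larger 46 to 683, knockout only 296 to 1013, smaller 10 to 125, absent 25 to 387). The 144 h response in KH then gave 4528 to 8781 genes, that in DNMT3ABKO 5701 to 9347, the line difference at 0 h 252 to 3516 and at 144 h 1155 to 4753. The highest count of differing responses came without replicate 2 of DNMT3ABKO at 0 h, the group with the widest spread; the cause of these shifts was not tested. Of the 807 genes, 338 were called in all 14 refits (those named above without the fold limit, and the block). A replicate block within each line gave 681 genes and ended the call of 14 named genes, which are given with their values in the report; it ended no other call of a gene named there. The deposited files give no depth, and a gene that was not called is not shown to respond alike.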
